A study of Homo sapiens with 6 samples.

Results

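The 4 ID genes and 6 genes of the BMP-SMAD pathway (SMAD1, SMAD5, SMAD6, SMAD7, SMAD9 and the receptor gene BMPR1A) were followed in HEK293 cells treated with retinoic acid and a cAMP analog. Members were the array probes annotated with one of these 10 symbols. They came to 16 of 48803 probes and to 9 of 18852 named genes; BMPR1A was not analysed here. The genes were selected on their signals in this same contrast, tRA/cAMP against control, so their differences between the groups are given as a description, with no test.

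HEK293 is an established line grown from human embryonic kidney. The tRA/cAMP group comprised 3 samples grown for 3 days in medium holding both all-trans retinoic acid (labelled tRA) and a dibutyryl ester of cAMP (labelled cAMP), and the control group comprised 3 samples grown for 3 days in complete medium alone. Retinoic acid acts through nuclear receptors that bind DNA, and the cAMP ester enters cells and activates protein kinase A. No sample received either agent alone and no dose is stated here, so the contribution of each cannot be told apart. Each sample was 1 bead array of total RNA. Whether samples of a group were separate cultures is not stated, so a p-value here reflects the spread among arrays, which may be technical. All arrays shared 1 chip on which each group held a run of positions, and effects of position and of treatment cannot be told apart.

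Bone morphogenetic proteins (BMPs) are secreted ligands that join type I receptors such as BMPR1A with type II receptors. The active receptor phosphorylates SMAD1, SMAD5 and SMAD9, which bind SMAD4, enter the nucleus and switch on target genes. Among the best known of these targets are ID1, ID2 and ID3, and the inhibitory SMADs, SMAD6 and SMAD7, which are also induced and feed back on the receptors. ID proteins have a helix-loop-helix domain but no DNA-binding region: they pair with E proteins and keep them from acting with lineage factors such as the proneural ones, and are known for holding cells in an undifferentiated, cycling state.

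The promoters of the ID genes are shown because ID1 and ID3 had the largest differences among the members. The windows are the 250 bases before the annotated start in RefSeq, build GRCh38.p14, 5′ to 3′ on the strand of the gene. Capitals mark matches on either strand to the motifs searched. GGCGCC is a GC-rich element known to bind BMP SMADs. CAGAC is a shorter SMAD-binding element. TGACGTCA is the full cAMP response element and TGACG its shorter form. AGGTCA is an element bound by nuclear receptors such as those of retinoic acid. The core promoter elements TATAAA (the TATA box) and CCAAT were added after the windows had been read.
ID1 (chr20:31605039-31605288, plus strand): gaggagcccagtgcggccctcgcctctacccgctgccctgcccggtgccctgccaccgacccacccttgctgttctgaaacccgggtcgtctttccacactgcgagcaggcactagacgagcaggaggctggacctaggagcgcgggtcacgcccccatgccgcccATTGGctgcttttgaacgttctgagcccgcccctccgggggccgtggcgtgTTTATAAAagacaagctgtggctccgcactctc
ID2 (chr2:8681806-8682055, plus strand): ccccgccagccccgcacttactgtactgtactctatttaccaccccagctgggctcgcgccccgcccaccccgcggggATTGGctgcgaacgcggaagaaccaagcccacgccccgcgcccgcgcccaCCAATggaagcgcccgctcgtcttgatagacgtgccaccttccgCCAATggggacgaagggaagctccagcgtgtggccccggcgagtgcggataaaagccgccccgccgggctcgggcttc
ID3 (chr1:23559502-23559751, minus strand): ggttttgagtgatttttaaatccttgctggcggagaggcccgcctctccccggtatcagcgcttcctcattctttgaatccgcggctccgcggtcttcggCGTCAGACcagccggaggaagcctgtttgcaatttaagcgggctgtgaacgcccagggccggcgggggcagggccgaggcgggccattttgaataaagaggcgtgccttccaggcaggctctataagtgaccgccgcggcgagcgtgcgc
ID4 (chr6:19837120-19837369, plus strand): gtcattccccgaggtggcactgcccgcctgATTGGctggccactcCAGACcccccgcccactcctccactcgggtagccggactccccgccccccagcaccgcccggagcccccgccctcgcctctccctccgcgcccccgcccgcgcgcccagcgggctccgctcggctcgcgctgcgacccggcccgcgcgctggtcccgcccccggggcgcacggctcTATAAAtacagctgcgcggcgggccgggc

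The windows had a GC content of 66.0% in ID1, 69.2% in ID2, 62.0% in ID3 and 78.8% in ID4, against a median of 58.0% over 35116 windows of that length. None of the 4 held GGCGCC, which 16.4% of all windows had. None held AGGTCA, found in 12.1%, and none TGACGTCA, found in 1.65%. The ID3 window held TGACG on the reverse strand at position -150, overlapping by 2 bases a CAGAC at position -147, where -1 is the base before the start. TGACG was found in 21.2% and CAGAC in 38% of all windows, so these matches are frequent ones. ID4 also held a CAGAC, at position -205. The ID1 window had TATAAA at position -31, with an overlapping reverse match at -33, and ID4 had it at position -29, against 10.7% of all windows. CCAAT, present in 32% of all windows, was found once in ID1, 3 times in ID2 and once in ID4. The ID3 window held neither TATAAA nor CCAAT. Only the exact letters given were searched, on both strands, so other spellings of an element were not counted. A match is a description of the letters, not a binding site, and elements farther away lie outside these windows.

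Signals are log2 intensities after background correction and normalization between arrays, and a probe was called detected on an array where its detection p, its rank among the negative control probes, was under 0.01. Between 14792 and 16103 probes were detected per array (30.3% to 33.0%), and the first principal component, with 42.6% of the variance, separated the groups. Of 7 markers known for this line VIM, KRT8, KRT18, NEFL and TUBB3 were detected on all 6 arrays, and NEFM and PAX2 on none. Their summed level was 37298 to 40167 with tRA/cAMP and 46901 to 53271 in controls on the linear scale, without overlap. VIM, the brightest and so the main part of this sum, differed by -0.50 with the groups apart (limma, adjusted p = 0.0565). KRT8 went the other way, by 0.26 with the groups apart (limma, adjusted p = 0.37). KRT18, NEFL and TUBB3 differed by -0.017, -0.14 and 0.075 with overlapping groups. The median difference was -0.017, and 0 of the 5 tested passed, with 1 at an unadjusted p under 0.05. The treatment showed in CYP26A1, an enzyme that clears retinoic acid and is induced by it, which rose 50.6-fold (limma, adjusted p = 5.5e-09), and in NR4A2, a nuclear receptor gene induced by cAMP, which rose 2.32-fold (limma, adjusted p = 5.6e-04). All 4 genes of the retinoid check list rose. Of the 3 genes of the cAMP list 2 rose, while CREM, also known to be induced by cAMP, differed by 0.57 with overlapping groups (limma, adjusted p = 0.188). Some markers of other cell types moved with the treatment. The summed level of 6 fibroblast markers was 1834 to 2771 with tRA/cAMP and 5394 to 5887 in controls on the linear scale; 2 of the 6, COL3A1 and LUM, were tested and fell (limma, adjusted p = 0.00153 and 8.8e-04), and COL1A2, DCN, PDGFRB and THY1 were detected on no array. The sums of 5 epithelial markers were 2669 to 3304 with tRA/cAMP and 3531 to 3953 in controls, with 4 of the 5, EPCAM and CDH1 among them, detected on no array. Of 5 endothelial markers, with sums of 384 to 676 with tRA/cAMP and 676 to 798 in controls, 3 were detected on no array and VWF fell (limma, adjusted p = 0.00447). Sums were 375 to 546 with tRA/cAMP and 324 to 421 in controls for 4 blood markers, and 313 to 325 with tRA/cAMP and 431 to 445 in controls for 4 muscle markers, of which 0 were detected. Their part in the results was not tested. Fewer cells of a type and less RNA per cell cannot be told apart in such bulk samples.

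ID1 and ID3, the inhibitors of basic helix-loop-helix (bHLH) factors with the strongest differences, were both higher with tRA/cAMP. The raw bead signal of the ID1 probe ILMN_1664861 was 1971, 2778 and 2444 on the tRA/cAMP arrays, against 1223, 1046 and 1360 on the control arrays. After normalization its log2 values were 10.78, 11.24 and 11.43 with tRA/cAMP and 9.78, 9.82 and 10.14 in controls. Every tRA/cAMP array lay above every control array, and the groups were 0.64 apart at their nearest. The means, 11.15 ± 0.33 with tRA/cAMP and 9.92 ± 0.20 in controls (SD, n = 3 each), differed by 1.23 (standard error 0.18), or 2.35-fold. Only 21 of 9944 tested genes had a higher difference.

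The single ID3 probe, ILMN_1732296, gave log2 values of 12.79, 13.23 and 13.41 with tRA/cAMP, against 11.95, 11.85 and 12.30 in controls. The groups again lay apart, by 0.49 at their nearest. The means of 13.14 ± 0.32 with tRA/cAMP and 12.03 ± 0.24 in controls (SD, n = 3 each) differed by 1.11 (standard error 0.18), or 2.17-fold, and 27 tested genes had a higher difference. ID1 and ID3 followed each other array by array: taken as deviations from the mean of the 6 arrays, their profiles differed by 0.075 (root mean square, log2). In both genes tRA/cAMP replicate 1 was the lowest of its group and control replicate 3 the highest of its own.

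A second ID1 probe, ILMN_1665832, was detected on 0 arrays and was not tested. Its detection p was 0.233, 0.0395 and 0.0211 on the tRA/cAMP arrays, against 0.273, 0.423 and 0.0804 on the control arrays. Its normalized values, 5.83, 6.63 and 7.07 with tRA/cAMP and 5.80, 5.64 and 6.26 in controls, overlapped between the groups. The ID1 difference therefore rests on 1 probe.

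ID2, a widely expressed family member, was higher by a smaller amount. Its probe ILMN_2086095 read 12.14, 12.43 and 12.34 with tRA/cAMP and 11.99, 11.65 and 11.86 in controls, a difference of 0.47 (standard error 0.14) or 1.39-fold. Its other probe, ILMN_1793990, read 11.25, 11.64 and 11.58 with tRA/cAMP and 11.24, 10.94 and 11.04 in controls, a difference of 0.42 (standard error 0.15). Both probes put each tRA/cAMP array above each control array, but in the second tRA/cAMP replicate 1 and control replicate 1 were only 0.0062 apart.

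ID4, a family member known from the developing nervous system, showed no separation. Its values were 10.17, 9.91 and 9.69 with tRA/cAMP, against 9.80, 9.30 and 10.20 in controls, and the control arrays spanned the whole range of the tRA/cAMP arrays. The difference was 0.16 (standard error 0.21), and 21.5% of all tested genes had a higher one. Without control replicate 2, the lowest array, it was -0.076, so 1 array sets its direction.

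**Figure D1:**
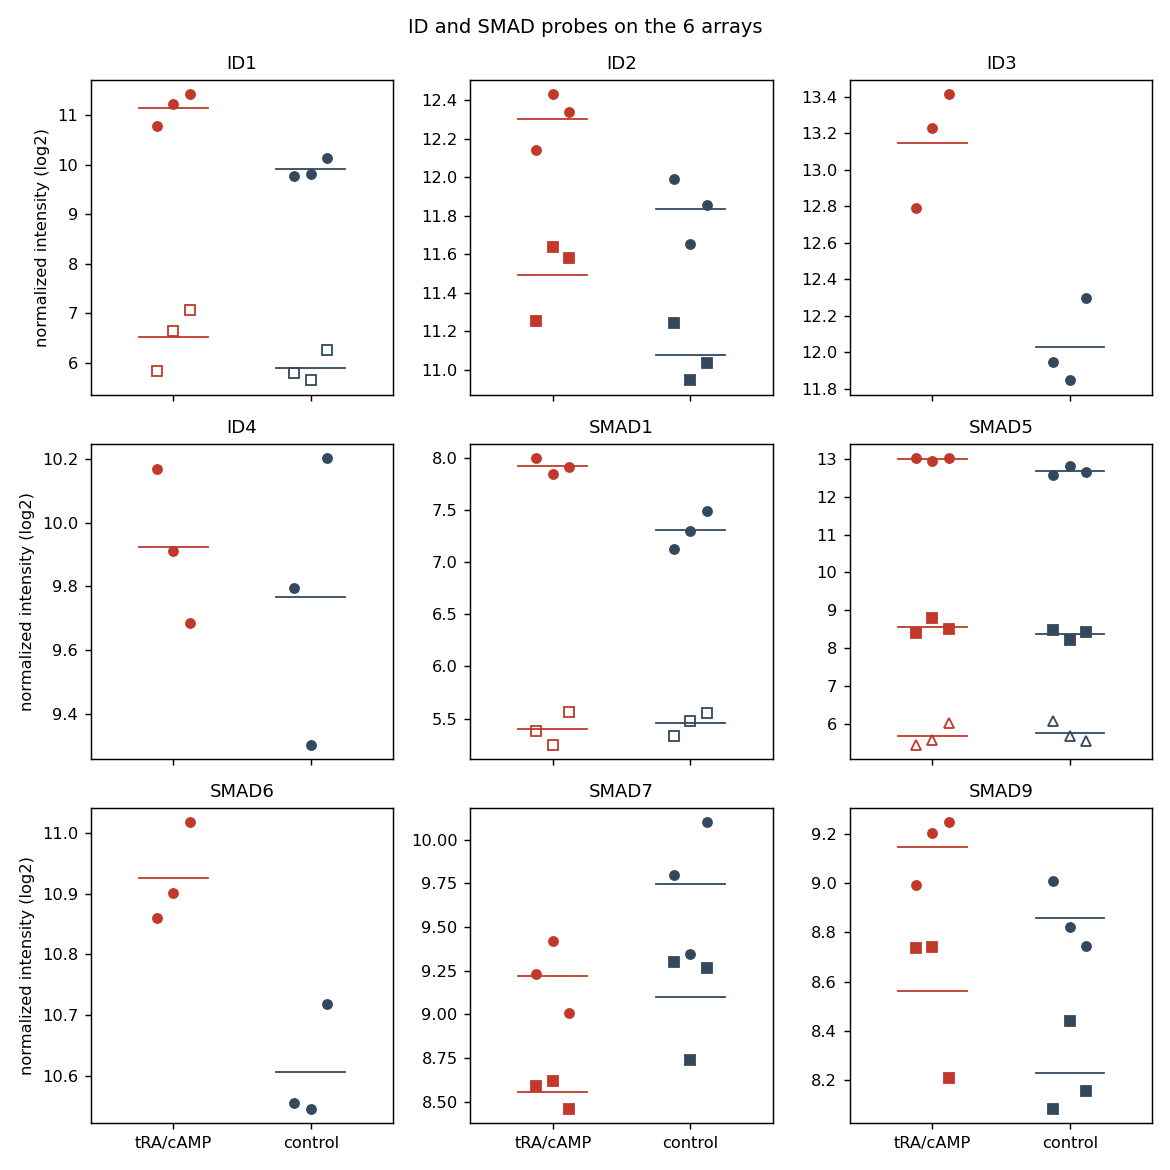
Normalized intensity (log2, y axis, scaled for each gene) of all 16 member probes on the 3 tRA/cAMP arrays (red, left) and the 3 control arrays (dark, right); each marker shape is a probe, lines are group means, and open markers are probes detected on 0 arrays. ID1 and ID3 show the widest gaps between the groups, ID4 overlaps, and SMAD7 lies lower with tRA/cAMP.

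The SMADs that BMP receptors phosphorylate each had a higher mean with tRA/cAMP in their tested probes, by less than ID1 and ID3. SMAD5 and SMAD9 lay within the middle 90% of all tested genes. A higher difference was found in 1.25% of all tested genes for SMAD1, 7.29% for SMAD5 and 8.67% for SMAD9. SMAD5 was read by 3 probes. In ILMN_1674551 the values were 13.01, 12.94 and 13.02 with tRA/cAMP and 12.58, 12.80 and 12.64 in controls, a difference of 0.32 (standard error 0.12) with the groups 0.14 apart. In ILMN_2371984 the difference was 0.19 (standard error 0.14) and the groups overlapped, and ILMN_1761994 was detected on 0 arrays.

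SMAD1 was near the limit of detection. Its probe ILMN_1670540 read 8.00, 7.85 and 7.92 with tRA/cAMP and 7.13, 7.30 and 7.49 in controls. It was detected on the 3 tRA/cAMP arrays, with detection p of 0.00527 to 0.00659, and on no control array, with detection p of 0.0119 to 0.0184. All 6 values thus lie close to the detection threshold. Its raw signals overlapped between the groups, at 459, 446 and 381 with tRA/cAMP and 378, 349 and 388 in controls. After background correction and normalization SMAD1 was at least 1.34-fold higher, taking the lowest detected signal of each control array as the bound. The fitted difference was 0.62 (standard error 0.13). That difference was only 0.29 without background correction and 0.30 in the deposited normalized table, so the bound holds only for this background correction. The other SMAD1 probe, ILMN_1705392, was detected on 0 arrays.

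SMAD9, the third of these SMADs, had its pair of probes detected on all arrays. ILMN_1839481 read 8.99, 9.20 and 9.25 with tRA/cAMP and 9.01, 8.82 and 8.74 in controls, a difference of 0.29 (standard error 0.13). ILMN_1815385 read 8.74, 8.74 and 8.21 with tRA/cAMP and 8.09, 8.44 and 8.16 in controls, a difference of 0.34 (standard error 0.17). In both probes only 1 array of each group overlapped: tRA/cAMP replicate 1 and control replicate 1 in the first, and tRA/cAMP replicate 3 and control replicate 2 in the second.

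The 2 inhibitory SMADs had differences of opposite sign. SMAD6, which acts mainly on the BMP branch, read 10.86, 10.90 and 11.02 with tRA/cAMP and 10.55, 10.55 and 10.72 in controls. The groups were 0.14 apart and differed by 0.32 (standard error 0.12), or 1.25-fold, and 7.09% of all tested genes had a higher difference. SMAD7, which restrains both the BMP and the TGF-beta branch, was the only member with a lower mean in tRA/cAMP cells among the probes detected.

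The SMAD7 probe ILMN_2203891 read 9.23, 9.42 and 9.01 with tRA/cAMP and 9.80, 9.34 and 10.10 in controls, a difference of -0.53 (standard error 0.19). Control replicate 2 lay inside the tRA/cAMP range, so the groups overlapped by about 0.08. The second probe, ILMN_2203896, read 8.59, 8.62 and 8.46 with tRA/cAMP and 9.30, 8.74 and 9.27 in controls, a difference of -0.54 (standard error 0.16), and here the groups lay 0.12 apart. In both probes control replicate 2 was the control array nearest to the tRA/cAMP arrays; it was also the lowest control array for ID4. SMAD7 differed by -0.73 without that array and by -0.35 without control replicate 3. Of all tested genes, 2.65% had a lower difference than SMAD7.

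**Figure D2:**
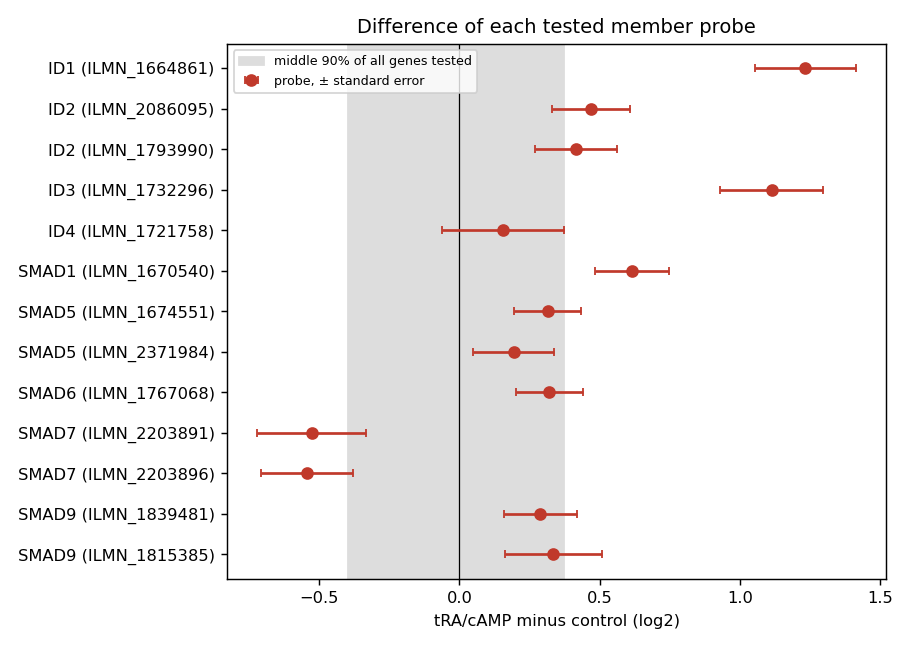
Difference between the tRA/cAMP and control means (log2, x axis) of the 13 tested member probes, with the standard error of the fit over all tested probes; the grey band holds the middle 90% of all genes tested, from -0.40 to 0.37. ID1 and ID3 lie far to the right of the band, ID2 and SMAD1 to a lesser extent, and both SMAD7 probes to its left; the SMAD1 control signals were below detection.

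Of the 9 member genes with a probe, all passed the filter on low signals, with 13 of their 16 probes; SMAD1 passed through the tRA/cAMP arrays alone. Their differences had a median of 0.32, against 0.0018 over all 9944 genes tested. Of the 9, 6 (ID1, ID2, ID3, SMAD1, SMAD5 and SMAD6) had all tRA/cAMP arrays above all control arrays and 0 had them below, against 9.2% and 9.7% of all genes (18.9% in either direction). Of the 13 tested probes, 7 were apart on the higher side and 1 on the lower, against 8.94% and 9.52% of all tested probes. In the limma fit over all genes, 3 members (ID1, ID3 and SMAD1) were past an adjusted p of 0.05 on the higher side and 0 on the lower, where 1.11% and 1.46% of all genes were (2.56% in either direction). Since the members were picked with this contrast known, these counts are no test of the members, and nothing is read from them.

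**Figure D3:**
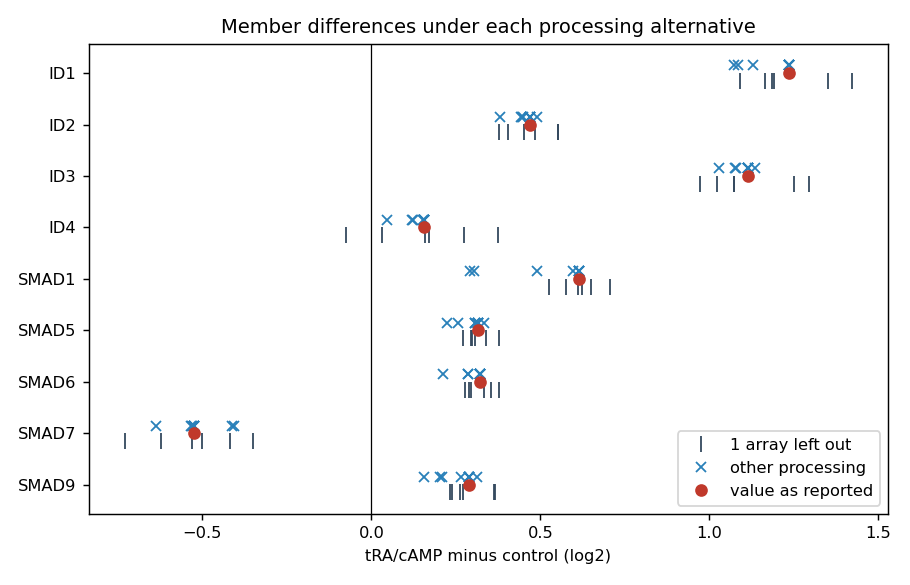
Difference between the tRA/cAMP and control means (log2, x axis) of each member gene as reported (red), with 1 array left out (bars) and under other processing (crosses). ID1 stays between 1.07 and 1.42 and ID3 between 0.97 and 1.29, ID4 crosses 0, and SMAD7 stays between -0.73 and -0.35.

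The rest of the pathway, 143 genes in 7 lists from ligands to bHLH partners, was tested in the same contrast. Of these, 135 had a probe and 76 were detected well enough to be tested. Past the threshold, 6 were higher with tRA/cAMP and 2 lower (limma, Benjamini-Hochberg adjusted p under 0.05 over all genes), which is 10.5% of the tested ones against 2.56% of all genes. By direction, 1.11% of all genes were called higher and 1.46% lower, the shares to set beside the counts of each list below. The median difference of the 76 genes was 0.023, against 0.0018 over all genes. The lists were drawn up with earlier results for GATA3, HES5 and NEUROG2 known, and these genes are among those called higher. Their calls raise the share of the lists by choice and are not independent evidence of the lists' direction. Nothing is read from that share.

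Among other known BMP and TGF-beta targets, 3 of 16 tested genes rose, 0 fell, and the list's median difference was 0.24. GATA2, a zinc-finger transcription factor, read 9.93, 9.76 and 9.80 with tRA/cAMP and 8.81, 8.87 and 9.27 in controls, and rose 1.80-fold (limma, adjusted p = 0.0121). Its relative GATA3 read 9.22, 9.35 and 9.37 with tRA/cAMP and 8.22, 8.12 and 8.78 in controls, and rose 1.92-fold (limma, adjusted p = 0.0156). In both genes the groups lay apart, with control replicate 3 the highest control. HEY1, a bHLH repressor, read 14.14, 14.17 and 14.12 with tRA/cAMP and 13.53, 13.65 and 13.73 in controls, and rose 1.42-fold (limma, adjusted p = 0.0487); its other tested probe differed by 0.36, against 0.51. The homeobox genes MSX1 and MSX2 differed by 0.017 (standard error 0.14) and 0.49 (standard error 0.18), and the repressor gene HES1 by 0.23 (standard error 0.14), none past the threshold.

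Inside the cell, 1 of 23 tested SMADs and regulators rose and 0 fell, with a median difference of 0.0023. SKIL, a corepressor that binds SMADs, read 7.81, 7.80 and 8.03 with tRA/cAMP and 7.13, 6.77 and 7.30 in controls (limma, adjusted p = 0.0195). It was detected on no control array and entered the test through the tRA/cAMP arrays alone, so its call is not independent of the filter. After background correction it was at least 1.31-fold higher. Without that correction its difference was 0.37 and it did not pass (limma, adjusted p = 0.0909). SMAD2 and SMAD3, the SMADs of the TGF-beta and activin branch, differed by 0.62 (standard error 0.16; limma, adjusted p = 0.0738) and by 0.40 (standard error 0.13; limma, adjusted p = 0.188). Every tRA/cAMP array lay above every control array in both, yet neither passed, apart from SMAD2 without tRA/cAMP replicate 3 (limma, adjusted p = 0.0477). SMAD4, the partner shared by all branches, read 12.53, 12.38 and 12.30 with tRA/cAMP and 12.51, 12.37 and 12.25 in controls, a difference of 0.029 (standard error 0.12), within the spread of either group.

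At the cell surface, 1 of 11 tested receptors and co-receptors fell and 0 rose. The list's median difference was -0.079. The groups lay apart in 1 gene on the higher side and 4 on the lower, against 9.2% and 9.7% of all genes tested. The gene that fell was AMHR2, the type II receptor of anti-Mullerian hormone, which signals through the BMP SMADs. It read 8.39, 8.28 and 8.55 with tRA/cAMP and 9.17, 9.50 and 9.10 in controls, and fell 1.80-fold (limma, adjusted p = 0.0109). The BMP receptors themselves did not pass. The type I receptor genes BMPR1B and ACVR1 differed by -0.31 (standard error 0.12) and -0.11 (standard error 0.12), and the type II receptor gene BMPR2 by 0.041 (standard error 0.18).

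Neither of the ligand lists held a gene past the threshold in limma. Of the 8 BMP and related ligands tested, 4 had an unadjusted p under 0.05, as did 14.2% of all genes tested; BMP2 was on the higher side and BMP6, BMP7 and GDF11, the last named after its value was seen, on the lower. Of the 2 TGF-beta and activin ligands tested 0 had. The median differences were -0.17 for the BMP list and -0.24 for the TGF-beta list. BMP2 read 9.05, 9.13 and 9.35 with tRA/cAMP and 8.50, 8.75 and 8.67 in controls, and BMP7 read 10.21, 10.09 and 10.37 with tRA/cAMP and 10.58, 10.85 and 10.90 in controls. The groups lay apart in both, in opposite directions. The differences were 0.54 (standard error 0.13; limma, adjusted p = 0.0638) for BMP2 and -0.55 (standard error 0.14; limma, adjusted p = 0.0653) for BMP7. BMP7 passed without background correction (limma, adjusted p = 0.0308), with robust variances that follow a trend (0.0274) and in the deposited table (0.0319). BMP4, a further ligand, was detected on 0 arrays.

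None of 7 tested extracellular and membrane inhibitors passed in limma, where 1 had an unadjusted p under 0.05; their median difference was 0.073. FST, which traps activins, differed by 0.089 (standard error 0.18), and BAMBI, a receptor lacking the kinase domain, by -0.076 (standard error 0.15). The BMP antagonist genes NOG, CHRD and GREM1 were detected on 0 arrays.

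The partners of the ID proteins were tested too. The E protein genes TCF3, TCF4 and TCF12 differed by -0.17 (standard error 0.15), 0.16 (standard error 0.17) and -0.19 (standard error 0.14), and in all 3 the groups overlapped. Of 9 tested E proteins and other bHLH factors 2 rose and 1 fell, with a median difference of 0.16. HES5, a Notch target and repressor, read 9.79, 9.96 and 10.01 with tRA/cAMP and 9.33, 9.39 and 9.23 in controls, and rose 1.52-fold (limma, adjusted p = 0.0263). NEUROG2, a proneural factor, read 8.87, 8.72 and 8.59 with tRA/cAMP and 7.95, 8.26 and 8.21 in controls, and rose 1.50-fold at the edge of the threshold (limma, adjusted p = 0.04999). HAND1, a factor of heart and trophoblast, read 11.73, 11.72 and 11.72 with tRA/cAMP and 12.22, 12.28 and 12.14 in controls, and fell 1.41-fold (limma, adjusted p = 0.0492).

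Most of the calls in the pathway lists depended on the settings. NEUROG2 missed the threshold in 14 of 15 alternatives (limma, adjusted p = 0.0524 to 0.46), HEY1 in 11 (0.053 to 0.444), HAND1 in 11 (0.0535 to 0.183), SKIL in 10 of 14 (0.0564 to 0.149) and HES5 in 8 (0.0616 to 0.333). For NEUROG2, HEY1 and HAND1 these included leaving out any single array, for SKIL any but control replicate 3 and for HES5 any but tRA/cAMP replicate 1. GATA3 missed it without tRA/cAMP replicate 2 (limma, adjusted p = 0.0657) or 3 (0.0627) and without control replicate 1 (0.0657) or 2 (0.0621), also without normalization (0.0743) and with no filter (0.0762). GATA2 missed it without tRA/cAMP replicate 1 (0.056) and without control replicate 1 (0.0548) or 2 (0.0554), also without normalization (0.0979) and with no filter (0.0588). AMHR2 missed it without tRA/cAMP replicate 2 (0.0542) and with no filter (0.0536).

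**Figure D4:**
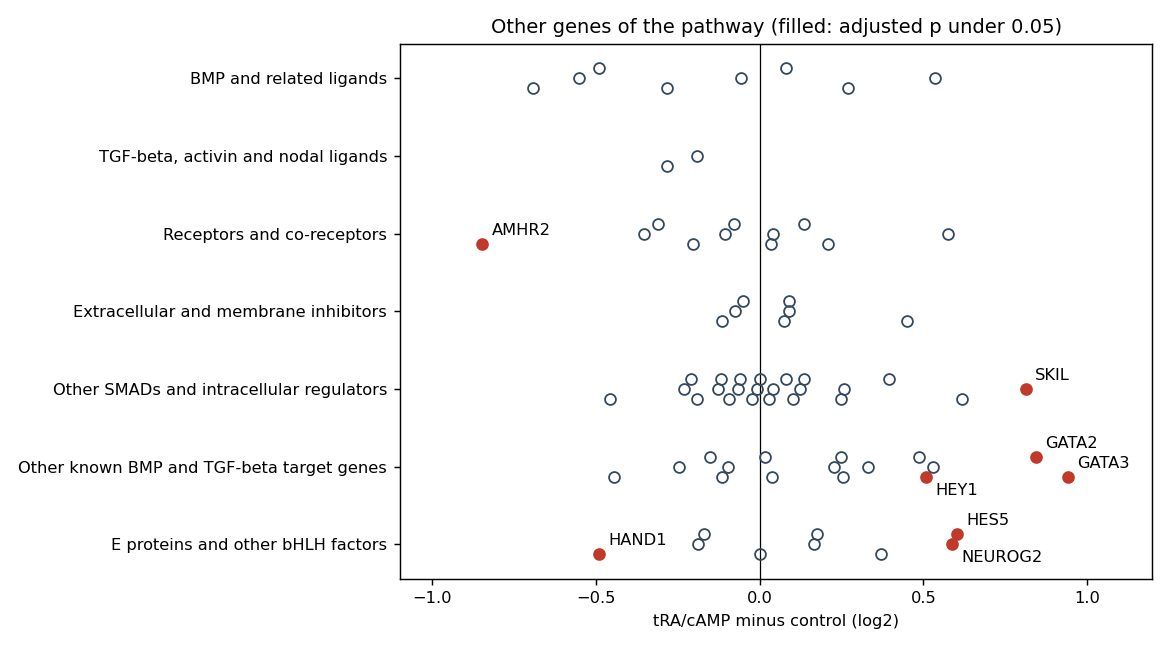
Difference between the tRA/cAMP and control means (log2, x axis) of the 76 tested genes of the 7 pathway lists, members left out; filled points passed an adjusted p of 0.05 in limma and are named. The 6 genes past the threshold on the higher side lie among the targets, the bHLH factors and the intracellular regulators, while AMHR2 and HAND1 lie on the lower side.

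The tested genes whose profile over the 6 arrays came nearest to those of ID1 and ID3, by the root mean square difference of deviations from each gene's own mean, were EPAS1, which encodes a hypoxia-inducible factor, and GNGT1, a G protein gamma subunit gene. EPAS1 differed from the ID3 profile by 0.14 and from the ID1 profile by 0.19, and GNGT1 by 0.15 and 0.21. EPAS1 read 10.88, 11.22 and 11.22 with tRA/cAMP and 10.10, 10.08 and 10.47 in controls, so that, as in ID1 and ID3, tRA/cAMP replicate 1 was lowest and control replicate 3 highest within the groups. The step between the groups is part of the measure of likeness, so a higher level with tRA/cAMP was fixed by the choice of these genes and is not tested here. EPAS1 differed by 0.89 and GNGT1 by 0.83, against 1.23 for ID1 and 1.11 for ID3. The next 3 for ID1 were NR4A2, OTULINL and CACNA2D2, at 0.22 to 0.23, and for ID3 GATA3, OTULINL and NRG4, at 0.18 to 0.21. CACNA2D2, a calcium channel subunit gene, was detected on no control array and was at least 1.76-fold higher. ID1 and ID3 were nearer to each other than either was to any of these.

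**Figure D5:**
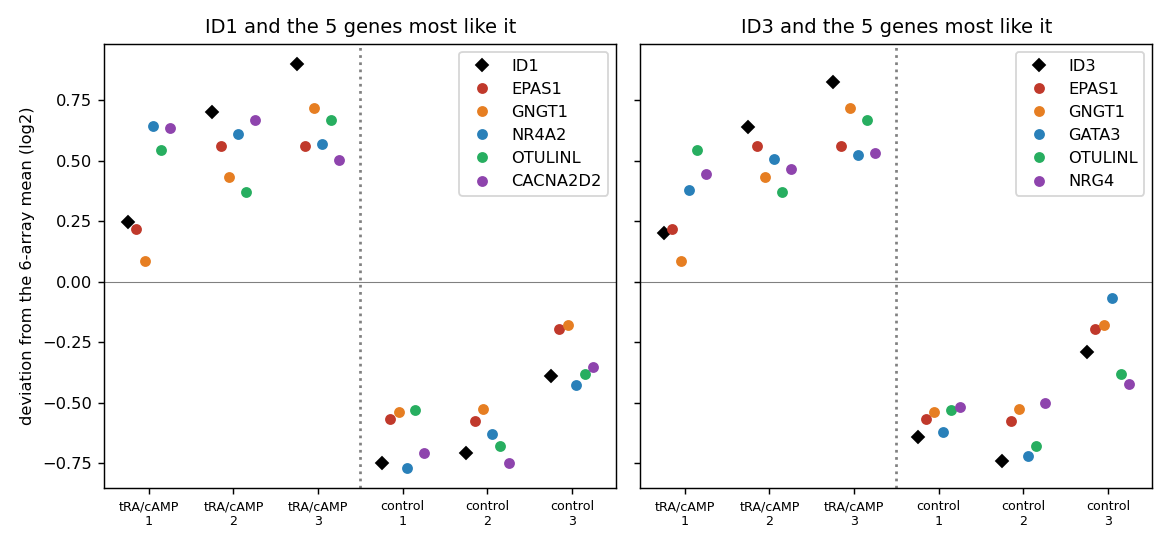
Deviation of each gene from its own mean over the 6 arrays (log2, y axis) on the 3 tRA/cAMP arrays and the 3 control arrays, for ID1 (left panel) and ID3 (right panel, black diamonds) and the 5 tested genes nearest to each. The genes were chosen for this likeness, which fixes their higher values on the tRA/cAMP arrays; EPAS1 and GNGT1 come nearest to ID1 and ID3 on tRA/cAMP replicate 1.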

How the data were processed

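Total RNA of 6 HEK293 samples was turned into biotinylated cRNA for Illumina bead arrays, per the labels' protocols. The deposited intensity values are linear average bead signals that had not been normalized; BeadStudio is named in the submitters' processing notes. The file also holds a deposited detection p-value per probe and array, per the file headers. A second deposited intensity table had nearly equal column medians (250.12 to 250.22). It kept each array's probe order (Spearman correlation 1 with the own array, at most 0.912 with others). The sources used here do not say how the authors made it; it served for comparison.

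Background correction (normexp, offset 16, with the negative control signals inferred from detection p-values), quantile normalization and log2 were done in R 4.3.3 with the neqc function of limma 3.58.1. Of 48803 probes, 28098 had 1 gene symbol, 13 several and 20692 none listed in the platform annotation. The test took the 14923 probes detected on the 3 arrays of either group, and the brightest tested probe stood for a gene (9944 genes). Differences, tRA/cAMP minus control, were fitted with lmFit and eBayes without covariates, with Benjamini-Hochberg adjustment over all genes. Standard errors of member probes that stand for a gene come from this fit, and those of other probes, and all those plotted for probes, from a fit over all tested probes. Where a group had no detected array, a fold is a bound against the lowest detected signal of each of its arrays. Such a bound holds only for this background correction and normalization. The number of arrays limits the precision. The fit was tested on simulated data.

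The members and lists were chosen with earlier results of these data known. All members, all called genes of the lists, 20 fixed pathway genes, 2 treatment checks and the 5 genes nearest to ID1 and to ID3 are named. Promoter windows came from RefSeq tables, in which all 10 members were found. Of the marker lists, 1 blood and 1 epithelial gene were tested and 0 of them passed, and 0 muscle genes were tested. The 16 alternatives covered background correction, normalization, the deposited table, the filter on dim probes, how a gene's probes were combined, the variance model, a replicate block and each array left out. Python 3.11.15 with matplotlib 3.10.9 drew the figures.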

Additional observations from a re-analysis of the deposited data

How the results depend on the processing

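ID1, ID2, ID3, SMAD1, SMAD5, SMAD6, SMAD7 and SMAD9 kept their direction in every alternative that gave them a value, and ID4 did not without control replicate 2. Besides SMAD1, which moved as given above, without normalization SMAD5 moved to 0.22, SMAD6 to 0.21, SMAD9 to 0.16 and ID4 to 0.046, against 0.32, 0.32, 0.29 and 0.16. Members with groups apart on the higher side numbered 4 to 7 over the alternatives. On the lower side they numbered 1 with the mean of probes, 1 with every tested probe by itself and 0 to 1 with an array left out. Of all tested genes, 2.43% were apart on the higher side without normalization, 9.71% with the mean of probes and 13.7% to 15.6% with an array left out. The lower side held 10.2% with the mean of probes, 9.52% of probes by themselves and 13.8% to 15.2% with an array left out. Nothing is read from these counts. Without normalization the median of all genes was -0.10, 43 genes were higher, and higher genes made up 26.4% of calls against 43.1%. With no filter on dim probes 53 genes were higher and 78 lower, with detection on all 6 arrays 89 were lower, and with an array left out 52 to 83 were higher and 85 to 113 lower. Of the pathway lists, 0 genes were higher and 1 lower without normalization, 0 and 0 with no filter (limma; 15 and 34 had an unadjusted p under 0.05), and 3 and 1 with detection on all 6 arrays; 1 was lower with median scaling and 1 with every probe by itself. With an array left out 0 to 3 were higher and 0 to 3 lower. The cause was not tested. Without normalization BMPR2 differed by -0.066, SMAD4 by -0.066, FST by -0.016 and MSX1 by -0.065. With an array left out BMPR2 lay between -0.075 and 0.26, SMAD4 between -0.034 and 0.095, FST between -0.026 and 0.27, BAMBI between -0.18 and 0.062 and MSX1 between -0.089 and 0.11.

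Deviations of same-numbered samples correlated at 0.055, -0.047 and -0.036 across genes, within the range of differently numbered ones (-0.064 to 0.098). With 3 arrays per group these values cannot exclude a pairing of the samples. With the replicate number as a block, 3 pathway genes were higher and 1 lower. For signals near the background the difference changed with the background correction: that of SKIL was 0.37 without it, against 0.81.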

Other observations

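The repulsive guidance molecules, BMP co-receptors on the cell surface, stood on opposite sides; they and BMP6 were picked after their values were seen. RGMB read 9.29, 8.75 and 8.77 with tRA/cAMP and 8.16, 8.59 and 8.33 in controls, a difference of 0.57 (standard error 0.17; limma, adjusted p = 0.14). RGMA read 11.07, 11.25 and 10.98 with tRA/cAMP and 11.37, 11.46 and 11.53 in controls, a difference of -0.35 (standard error 0.12; limma, adjusted p = 0.206). The ligand gene BMP6 read 8.45, 8.76 and 7.74 with tRA/cAMP and 9.20, 9.02 and 8.81 in controls, a difference of -0.69 (standard error 0.23; limma, adjusted p = 0.179). In each of the 3 genes the groups did not overlap, as in 18.9% of all tested genes, and none passed the threshold.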
